A study of Gallus gallus with 2 samples.

Results

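The glucocorticoid and stress axis genes described here are FKBP5, SGK1, NR3C2, CRH, CRHR2 and DUSP1. Every probe whose gene name or description on the array named any of these 6 genes was taken, which gave 8 probes of the 42034 on the array. NR3C2 had 3 probes and each of the other genes had 1. Filial imprinting is an early form of learning in which young birds come to prefer a conspicuous object, and the series compared brain RNA of trained chicks with that of dark-reared chicks. The groups were newly hatched Cobb chicks (a broiler strain) trained for 1 h, 16 in number, and 16 Cobb chicks reared in the dark. Whole-brain RNA was combined into 4 pools of 8 chicks, with female and male pools of each condition. Each of 2 arrays was hybridised with the trained pool of a sex labelled with Cy3, a green dye, and the dark-reared pool of that sex labelled with Cy5, a red dye.

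Pooling leaves the spread between chicks unmeasured, and the dyes were not swapped, so dye and condition cannot be told apart. The arrays of the 2 sexes are the only replicates, so sex and array cannot be told apart and every SD and p-value below includes any difference between the sexes. Dark-reared chicks were the only comparison group, and learning therefore cannot be told apart from light or handling. In whole-brain RNA, fewer cells of a type and less RNA per cell cannot be told apart either.

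The stress axis of vertebrates starts with corticotropin-releasing hormone, the product of CRH, which neurons of the hypothalamus release to act on the pituitary through CRHR1. CRHR2 is the second receptor of this peptide family and is best known for binding the urocortins. Pituitary corticotropin then drives the adrenal cortex to release corticosterone, the main glucocorticoid of birds. In the brain corticosterone binds the mineralocorticoid receptor NR3C2 and the glucocorticoid receptor NR3C1, which regulate transcription. FKBP5 is an HSP90 co-chaperone that lowers the receptor's affinity for hormone, and in mammals it is induced by glucocorticoids. The kinase SGK1 and the MAP kinase phosphatase DUSP1 are also known glucocorticoid-induced genes in mammals, and DUSP1 responds to many other stimuli.

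Testing was limited to the 27372 probes that, on each array, exceeded background clearly in 1 channel or more. The scanner software marked all 8 member probes as well above background in all 4 channels, although 2 NR3C2 probes were at most 2.02 times the local background, and no spot was saturated. Between 61.5% and 66.5% of all probes were well above background in a channel. Each ratio is the log2 of trained intensity over dark-reared intensity after background correction and loess, a smoothing that removes the dependence of the ratio on brightness, and levels are log2 intensities after the same steps and scaling between arrays. A call is an adjusted p under 0.05 in limma's moderated test over both arrays.

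FKBP5, CRH and SGK1 were higher and CRHR2, DUSP1 and NR3C2 were lower in trained than in dark-reared brains. FKBP5 rose 1.54-fold and CRH 1.38-fold, while CRHR2 fell to 0.757 of its dark-reared level. Of the 8 probes, 3 were called higher and 3 lower, against 6.31% of kept probes called higher and 11.2% called lower, or 17.5% in either direction. The members were chosen with earlier results of these data known, so these counts only describe them. The ratios had the same sign on both arrays for 7 of the 8 probes, as did those of 71.9% of kept probes. With loess replaced by centring each array's ratios on the median of all probes, 0 member probes were called higher and 5 lower (1 higher and 5 lower at an unadjusted p under 0.05). Of the 27372 kept probes 974 were called higher and 16499 lower there, and 18165 had an unadjusted p under 0.05 in either direction. The smallest adjusted p over all kept probes was 2.4e-96 in limma's test there, against 0.00470 as reported. So small a value from 2 arrays makes the counts with median centring not comparable with those as reported. With this centring FKBP5, CRH and SGK1 all had negative ratios, and the median over kept probes moved to -0.30 in females and -0.39 in males. Unlike loess, it leaves the dependence of the ratio on brightness in place. With the scanner software's processed signals no member passed in limma's test, where the smallest adjusted p over all kept probes was 0.261. At an unadjusted p under 0.05 the processed signals gave 3 member probes higher, those of FKBP5, CRH and the dim NR3C2 probe A_87_P001483, and 0 lower. In either direction 4878 of the 27372 kept probes were under it there. With a smaller normexp offset of 16, a constant added to dampen the ratios of dim spots, only FKBP5 (adjusted p = 0.0490 in limma) and CRH (0.0499) passed, and the smallest adjusted p over all kept probes was 0.0490. The means of the other called probes changed little there, to 0.31 for SGK1 (adjusted p = 0.0721 in limma), -0.41 for CRHR2 (0.0539), -0.29 for DUSP1 (0.0950) and -0.23 for NR3C2 probe A_87_P037597 (0.105). Among the NR3C2 probes not called, the mean of A_87_P027073 went from -0.14 to -0.24 and that of A_87_P001483 from 0.023 to 0.046.

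**Figure D1:**
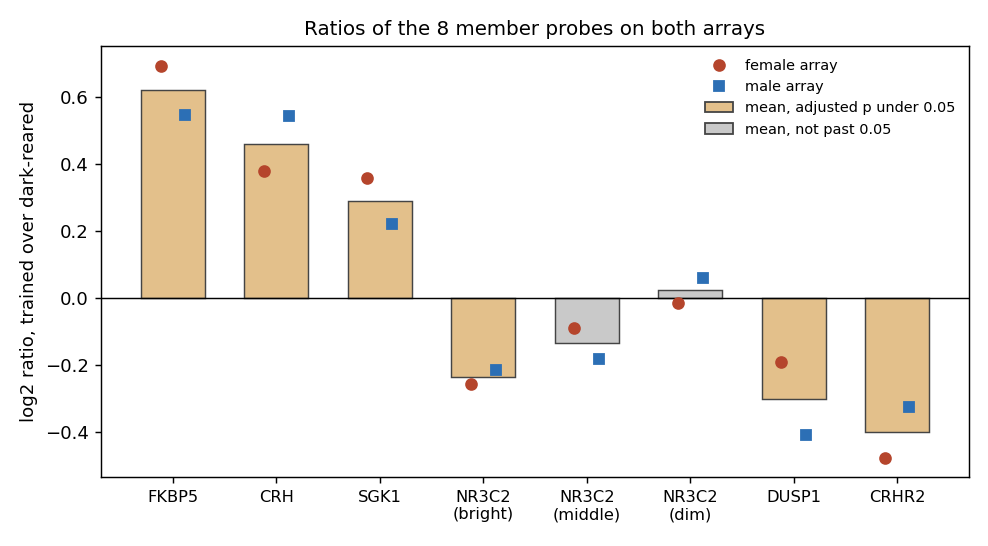
Log2 ratio of trained over dark-reared for each of the 8 member probes on the female and the male array (points), with the mean of the 2 arrays; the NR3C2 probes A_87_P037597, A_87_P027073 and A_87_P001483 are labelled bright, middle and dim in this and the other plots. FKBP5, CRH and SGK1 lie above 0 on both arrays, CRHR2, DUSP1 and the NR3C2 probe A_87_P037597 lie below 0 on both, and the other NR3C2 probes lie nearest to 0.

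CRH, the releasing hormone at the head of the axis, was read by probe A_87_P037220, placed on the minus strand of chromosome 2 from 114527978 to 114528037 in the galGal2 coordinates of the array files. Whether a probe lies in coding sequence or in a UTR was not analysed here for any member. The log2 level of CRH was 11.05 in the female and 11.12 in the male trained pool, against 10.67 in the female and 10.57 in the male dark-reared pool. Both trained pools thus lay above both dark-reared pools. The ratio was 0.38 on the female array, a 1.30-fold difference, and 0.54 on the male array, a 1.46-fold difference. The mean ratio was 0.46 ± 0.12 (SD, n = 2; SE 0.0622), with an adjusted p of 0.0110 in limma. Only 0.493% of kept probes had a higher mean. The mean was -0.27 with median centring.

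CRHR2, a receptor of the same peptide family that is best known for binding the urocortins, was lower in trained brains. Its probe A_87_P037238 is placed on the plus strand of chromosome 2 from 3773625 to 3786875. The 13251 bases are the genomic interval of the placement and not the length of the probe. Its log2 level was 8.53 in the female and 8.55 in the male trained pool, against 9.005 in the female and 8.88 in the male dark-reared pool, so both trained pools lay below both dark-reared pools. The ratio was -0.48 in females and -0.33 in males. Its mean ratio was -0.40 ± 0.11 (SD, n = 2; SE 0.0611), with an adjusted p of 0.0133 in limma, and 2.82% of kept probes had a lower mean. In the processed signals the mean was -0.22, more than 1.5 times smaller, and with median centring it was -0.96, more than 1.5 times larger.

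The mineralocorticoid receptor NR3C2 was read by 3 probes that differed. Probe A_87_P037597, on the minus strand of chromosome 4 from 32588257 to 32597870, had signals between 7.54 and 15.5 times the local background. Its log2 level was 8.74 in the female and 8.93 in the male trained pool, against 8.999 in the female and 9.15 in the male dark-reared pool. The trained pools did not overlap the dark-reared pools, although the trained male pool lay only just below the dark-reared female pool. The ratios were -0.26 in females and -0.22 in males, with a mean of -0.24 ± 0.030 (SD, n = 2; SE 0.0533) and an adjusted p of 0.0334 in limma. The processed signals gave a mean of -0.093 and median centring gave -0.82.

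The other NR3C2 probes were close to background and did not pass. Probe A_87_P027073, matched to an expressed sequence tag with no placement on the build, had signals between 1.30 and 2.02 times background. Its levels were 6.50 in the female and 6.27 in the male trained pool, against 6.59 in the female and 6.45 in the male dark-reared pool, and the groups overlapped. Its mean ratio was -0.14 ± 0.065 (SD, n = 2), with an adjusted p of 0.152 in limma. Probe A_87_P001483, on chromosome 4 from 32639917 to 32639978 and annotated as part of a mineralocorticoid receptor transcript, had signals between 1.16 and 1.34 times background. Its levels were 6.08 in both trained pools, against 6.10 in the female and 6.02 in the male dark-reared pool, and the groups overlapped. Its mean ratio was 0.023 ± 0.054 (SD, n = 2), with an adjusted p of 0.813 in limma. The fall of NR3C2 therefore rests on 1 of its 3 probes.

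**Figure D2:**
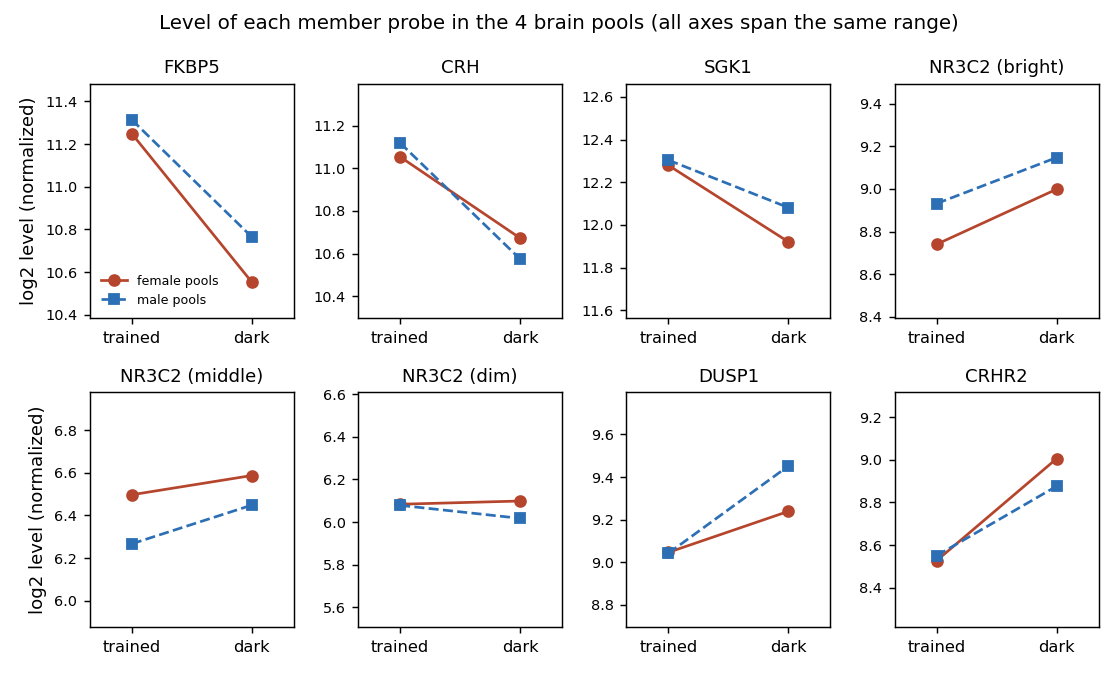
Log2 level of each member probe in the 2 trained and the 2 dark-reared pools; each point is a pool of 8 chicks. For 6 of the 8 probes the trained pools lie wholly above or wholly below the dark-reared pools, as they do for 54.5% of kept probes. The 2 NR3C2 probes near background overlap.

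FKBP5, the co-chaperone that damps receptor sensitivity, had the largest mean ratio of the members. Its probe A_87_P035068 is placed on chromosome 32 in the genomic interval from 978188 to 979159. The log2 level was 11.25 in the female and 11.31 in the male trained pool, against 10.55 in the female and 10.77 in the male dark-reared pool, so both trained pools lay above both dark-reared pools. The ratio was 0.70 on the female array, a 1.62-fold difference, and 0.55 on the male array, a 1.46-fold difference. The mean was 0.62 ± 0.10 (SD, n = 2; SE 0.0605), with an adjusted p of 0.00818 in limma. A higher mean was found for 0.146% of kept probes, and a mean of larger size in either direction for 0.519%. Processed signals put the mean at 0.60, and median centring put it at -0.12. FKBP5 was more than 1.5-fold higher on the female array, as were 0.321% of kept probes. No other member passed 1.5-fold on the female array, where 0.643% of kept probes were that much lower, and none passed it on the male array, where 0.34% were that much higher and 0.957% that much lower.

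SGK1, a kinase that raises sodium transport and is rapidly induced in many tissues, was read by probe A_87_P021944 on chromosome 3 from 55105904 to 55105963, under the array name SGK. Its log2 level was 12.28 in the female and 12.30 in the male trained pool, against 11.92 in the female and 12.08 in the male dark-reared pool. Both trained pools lay above both dark-reared pools. The ratio was 0.36 in females and 0.22 in males, with a mean of 0.29 ± 0.096 (SD, n = 2; SE 0.0595) and an adjusted p of 0.0261 in limma. The processed signals gave 0.18, more than 1.5 times smaller, and median centring gave -0.54.

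DUSP1, which removes phosphate from active MAP kinases, was read by probe A_87_P015922, placed on the unassigned chromosome Un from 53055903 to 53055962. Its log2 level was 9.05 in the female and 9.04 in the male trained pool, against 9.24 in the female and 9.45 in the male dark-reared pool. Both trained pools lay below both dark-reared pools. The ratio was -0.19 in females and -0.41 in males, with a mean of -0.30 ± 0.15 (SD, n = 2; SE 0.0686) and an adjusted p of 0.0346 in limma. In the processed signals the ratio was 0.063 in females and -0.21 in males, with a mean of -0.074, and median centring gave a mean of -0.91.

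The levels of 6 of the 8 probes did not overlap between conditions, and 54.5% of kept probes had levels that did not overlap. Calls were more frequent among brighter probes: 3.71% of kept probes with a mean log2 level under 7 were called, 23.4% of those at 7 to 9, 30.0% of those at 9 to 11 and 34.0% of those at 11 and over. CRHR2 and NR3C2 probe A_87_P037597 were at 7 to 9, FKBP5, CRH and DUSP1 at 9 to 11, SGK1 at 11 and over, and the other NR3C2 probes under 7.

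**Figure D3:**
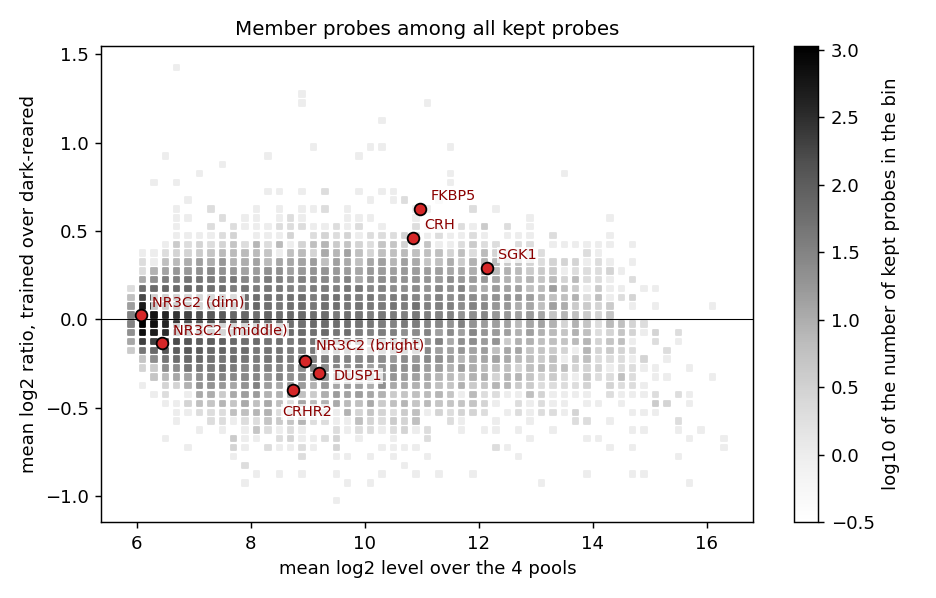
Mean log2 ratio of trained over dark-reared against mean log2 level for the kept probes, with the member probes marked. FKBP5, with 0.146% of kept probes above it, and CRH, with 0.493%, sit at the upper edge, and CRHR2, with 2.82% below it, sits toward the lower edge.

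Before normalization the dark-reared channel was the brighter for all 8 probes on both arrays. The raw mean signal of FKBP5 was 1666 in the female and 1608 in the male trained pool, against 2180 in the female and 2695 in the male dark-reared pool. That of CRH was 1456 in the female and 1415 in the male trained pool, against 2364 in the female and 2357 in the male dark-reared pool. That of DUSP1 was 364 in the female and 333 in the male trained pool, against 839 in the female and 1022 in the male dark-reared pool. Over all kept probes the median ratio before normalization was -0.71 in females and -0.85 in males. Where 0 lies depends on how this offset between the channels, which differ in both dye and condition, is removed. Loess added 1.07 to the ratio of FKBP5 in females and 1.28 in males, and 0.92 to that of CRHR2 in females and 1.08 in males. Among the 6 called probes before normalization, FKBP5 (-0.38), CRH (-0.69) and SGK1 (-0.80) had the least negative ratios in females, and DUSP1 (-1.14), NR3C2 probe A_87_P037597 (-1.18) and CRHR2 (-1.39) the most negative. In males these ratios were -0.73 for FKBP5, -0.72 for CRH, -1.14 for SGK1, -1.33 for NR3C2 probe A_87_P037597, -1.41 for CRHR2 and -1.55 for DUSP1. The NR3C2 probes near background, which were not called, had -0.29 in females and -0.21 in males (A_87_P001483) and -0.57 in females and -0.64 in males (A_87_P027073).

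The scanner software's own p for a single spot, which measures pixel and background error within an array, was listed in the authors' deposited table. For FKBP5 the authors' deposited table lists 0.00195 in females and 0.0111 in males. For CRH the authors' deposited table lists 0.125 in females and 0.0297 in males. In the authors' deposited table this p was under 0.05 for 9.09% of kept probes in females and for 10.7% in males, and FKBP5 was the only member gene with every spot under it.

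The response could be compared between sexes only as values, with no test, because each sex had 1 array. The female ratio minus the male ratio was 0.15 for FKBP5, 0.14 for SGK1, 0.22 for DUSP1, -0.16 for CRH, -0.15 for CRHR2 and -0.043 for NR3C2 probe A_87_P037597. FKBP5 and SGK1 had the larger rise in females, CRH had the larger rise in males, and DUSP1 had the larger fall in males. The median SD between the arrays over kept probes was 0.0591, to be set against the members' SDs and not against these differences. The SDs were 0.10 for FKBP5, 0.096 for SGK1, 0.15 for DUSP1, 0.12 for CRH, 0.11 for CRHR2 and 0.030 for NR3C2 probe A_87_P037597. For DUSP1 the trained pools of the sexes had levels that differed by 0.0041, whereas the level of the dark-reared female pool minus that of the male pool was -0.21. For FKBP5 the same difference was -0.065 between the trained pools and -0.21 between the dark-reared pools.

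A list of 120 genes of the axis, grouped by role, was set beside the members. Probes named 78 of them and 68 had a kept probe, of which the brightest was used. Of the 68, 14 rose, 11 fell and 43 did not pass, against 8.74% of 7665 named genes that rose and 12.6% that fell, or 21.4% in either direction. Because the list was written with earlier results of these data known, its counts are a description and enrichment was not tested. The median ratio of the list was 0.025, against 0.0042 over all named genes. Without the 6 members 11 of 62 rose and 8 fell. At an unadjusted p under 0.05 in limma's test as reported, 25 genes of the list were higher and 15 lower. Of the 27372 kept probes 9060 were under it in either direction, the share to set beside the unadjusted counts by role below. With median centring 1 gene of the list rose and 41 fell, where 974 of the 27372 kept probes rose and 16499 fell. As said above for the members, these counts are not comparable with those as reported. With the processed signals 0 genes passed in limma's test, with 14 higher and 2 lower at an unadjusted p under 0.05. Of the 27372 kept probes 4878 were under that unadjusted p with the processed signals, in either direction.

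Among 5 measured ligands and binding proteins 2 rose and 0 fell, against 8.74% of named genes that rose and 12.6% that fell. The gene that rose beside CRH was ADCYAP1, the neuropeptide PACAP that stimulates CRH neurons in mammals. Its ratio was 0.32 in females and 0.39 in males, with a mean of 0.35 (adjusted p = 0.0135 in limma) and a mean of -0.10 with median centring. POMC, the precursor of corticotropin, was near background, with a ratio of -0.040 in females and of -0.021 in males (adjusted p = 0.738 in limma). CRHBP, which binds and buffers CRH, had ratios of -0.034 in females and -0.40 in males and did not pass (adjusted p = 0.160 in limma).

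Among 6 measured receptors 0 rose in limma, with 1 higher at an unadjusted p under 0.05, and 2, CRHR2 and NR3C2, fell. Over all named genes 8.74% rose and 12.6% fell. CRHR1, the pituitary and forebrain receptor of CRH, had ratios of 0.14 in females and 0.32 in males and did not pass (adjusted p = 0.0590 in limma). The glucocorticoid receptor NR3C1 had a probe near background, with levels of 6.05 in the female and 6.12 in the male trained pool, against 6.13 in the female and 6.01 in the male dark-reared pool. Its groups overlapped and its mean ratio was 0.017 (adjusted p = 0.885 in limma).

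Of 13 measured receptor chaperones and cofactors FKBP5 was the only gene that rose, and 4 fell. FKBP4, the co-chaperone that favours hormone binding and nuclear transport of the receptor, had ratios of 0.11 in females and 0.23 in males and did not pass (adjusted p = 0.0960 in limma). The chaperone HSP90AB1 had a mean of -0.35, the cochaperone BAG1 -0.27, the coactivator NCOA1 -0.25 and the corepressor NCOR1 -0.34. These 4 had adjusted p of 0.0260, 0.0222, 0.0288 and 0.0143 in limma, in that order. In the processed signals HSP90AB1 had a mean of 0.18, NCOA1 of 0.13 and NCOR1 of 0.017, so of the 4 only BAG1 lay below 0 in both.

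The genes listed as glucocorticoid-responsive targets moved both ways, with 6 of 18 measured genes higher and 4 lower, against 8.74% and 12.6% of named genes. The 6 include MT4 and a probe whose array name (ZBTB16) and RefSeq name (ZBTB32) differ, so it may not read the listed target. PDK4, a kinase that holds back glucose oxidation, had the largest ratio, 1.10 in females and 1.13 in males, with a mean of 1.12 ± 0.024 (SD, n = 2; adjusted p = 0.00470 in limma), and it lay above 0 with median centring too, at 0.42. The metallothionein MT4 had ratios of 1.09 in females and 0.54 in males (mean 0.82, adjusted p = 0.0132 in limma). The transcription factor CEBPB, at 0.22, the cell cycle inhibitor CDKN1A, at 0.21, and the probe that the array names ZBTB16 and RefSeq names ZBTB32, at 0.32, rose with SGK1. MT4, CEBPB and CDKN1A lay below 0 with median centring.

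The targets that fell beside DUSP1 were SAT1, an enzyme of polyamine breakdown, the G protein regulator RGS2 and glutamine synthetase GLUL. Their mean ratios were -0.48 for SAT1, -0.34 for RGS2 and -0.27 for GLUL. In the processed signals SAT1 had -0.39, while RGS2 had -0.050 and GLUL -0.021. The clock gene PER2 was near background, with a mean of -0.0036 (adjusted p = 0.972 in limma). HSD11B2, which inactivates corticosterone, and TSC22D3, also called GILZ, were not analysed here.

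Of the 8 measured dual specificity phosphatases and MAP kinases 3 rose and 0 fell in limma, with 1 lower at an unadjusted p under 0.05. Over all named genes, the share to set beside each role in this paragraph, 8.74% rose and 12.6% fell. The phosphatase DUSP4 had ratios of 0.38 in females and 0.65 in males, DUSP10 had 0.43 and 0.21, and the kinase MAPK8 had 0.34 and 0.27, in females and males. DUSP4 lay above 0 with median centring, at 0.19, and DUSP10 and MAPK8 lay below 0. Of the 7 measured other immunophilins FKBP1A (0.58) and FKBP8 (0.24) rose and FKBP9 (-0.27) fell. FKBP1A lay at -0.30 and FKBP8 at 0.12 with median centring, and FKBP9 at 0.087 in the processed signals. None of the 6 SGK1 paralogues and substrates and none of the 5 steroid synthesis genes passed in limma, where 3 and 2 of them were higher and 0 were lower at an unadjusted p under 0.05.

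**Figure D4:**
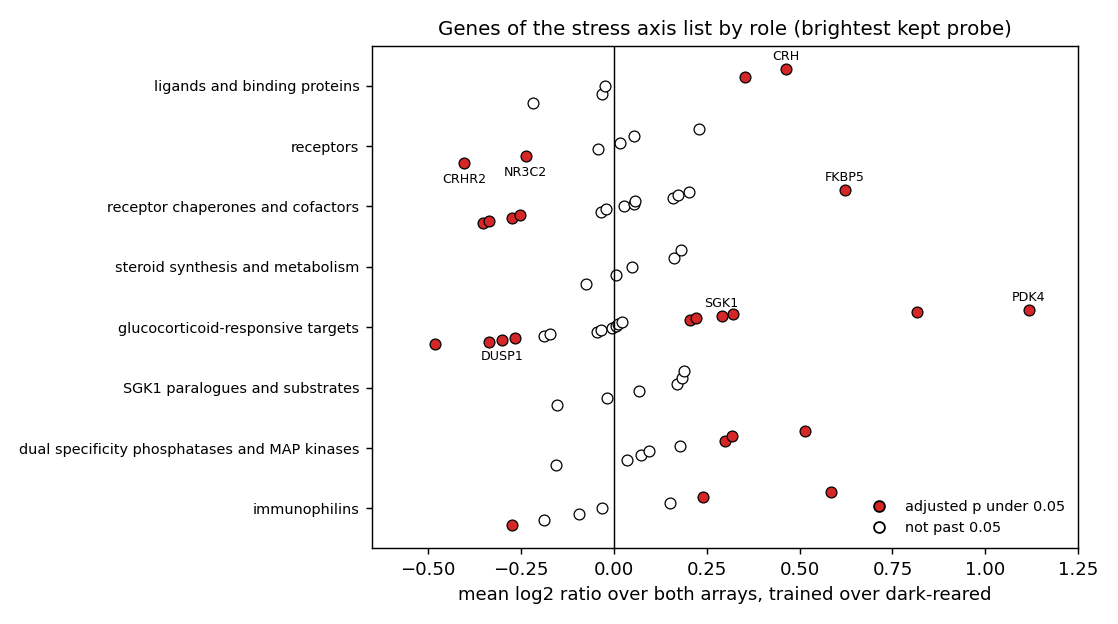
Mean log2 ratio of trained over dark-reared for the 68 measured genes of the axis list, grouped by role, with calls marked. PDK4, at 1.12, lies highest and SAT1, at -0.48, lies lowest of the genes that passed.

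Markers of cell types and organs were read beside these results, where 8.74% of 7665 named genes were called higher and 12.6% lower. In limma's test 9060 of the 27372 kept probes had an unadjusted p under 0.05, in either direction. Pituitary hormones PRL, GH, TSHB and CGA and the factor POU1F1 were not well above background, and POMC was near background in every pool, while CHGA, which neurons also express, had log2 levels of 12.78 and 12.86 in the trained pools, against 12.95 and 12.80 in the dark-reared pools. Of the 6 adrenal markers STAR, DBH and MC2R were not well above background, and CYP11A1, CYP17A1 and TH were above it in every channel, at log2 levels under 7. None of the 5 measured markers of these organs passed in limma, with 0 at an unadjusted p under 0.05. Of 6 measured neuron markers 4 did not pass, and STMN2 (-0.39) and NEFL (-0.21) were lower. In the processed signals STMN2 had a mean of -0.26 and NEFL of -0.076. The neuron markers' summed log2 level was 16.10 in the female and 16.19 in the male trained pool, against 16.36 in the female and 16.33 in the male dark-reared pool. STMN2 and NEFL were the brightest of the 6 in every pool and weigh most in this sum. The median ratio of the 6 was -0.025. Of 5 vascular markers 4 were lower, VWF (-0.71), SOX18 (-0.67), COL4A1 (-0.45) and CLDN5 (-0.23). KDR was near background and did not pass. In the processed signals CLDN5 had a mean of 0.053, VWF of -0.40, SOX18 of -0.48 and COL4A1 of -0.48. The vascular markers' summed log2 level was 12.25 in the female and 12.21 in the male trained pool, against 12.71 in the female and 12.64 in the male dark-reared pool. COL4A1, the brightest of the 5, weighs most in this sum, and the median ratio of the 5 was -0.45. The part of vascular cells or neurons in the fall of CRHR2, NR3C2 and DUSP1 was not tested. Of 4 measured astrocyte and radial glia markers AQP4 was higher and GLUL lower, of 2 oligodendrocyte markers CNP was higher and MBP lower, and of 2 blood markers HBBA was higher and EPB42 lower. Processed signals gave means of 0.015 for AQP4, -0.021 for GLUL, 0.21 for CNP, -0.24 for MBP, 0.31 for HBBA and -0.37 for EPB42. Of 5 measured neuropeptides listed for the hypothalamus none passed in limma, with 1 (SST) higher and 0 lower at an unadjusted p under 0.05. Whole-brain RNA does not show which region gave their signals. TRH and AGRP among the 5 were near background, and AVP was on the array but not well above background.

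The genes whose pair of ratios lay nearest to that of FKBP5 were FZD3 (0.65 in females and 0.57 in males), YWHAE (0.65 and 0.62) and EGR1 (0.65 and 0.47). Their Euclidean distances from FKBP5 were 0.0541, 0.0814 and 0.0911 over the 2 arrays, and these 3 were the only genes of 7361 within 0.1. The nearest to CRH were PDIA3 (0.37 and 0.52), PON1 (0.35 and 0.49) and HP1BP3 (0.43 and 0.52), and 16 genes lay within 0.1 of it.

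**Figure D5:**
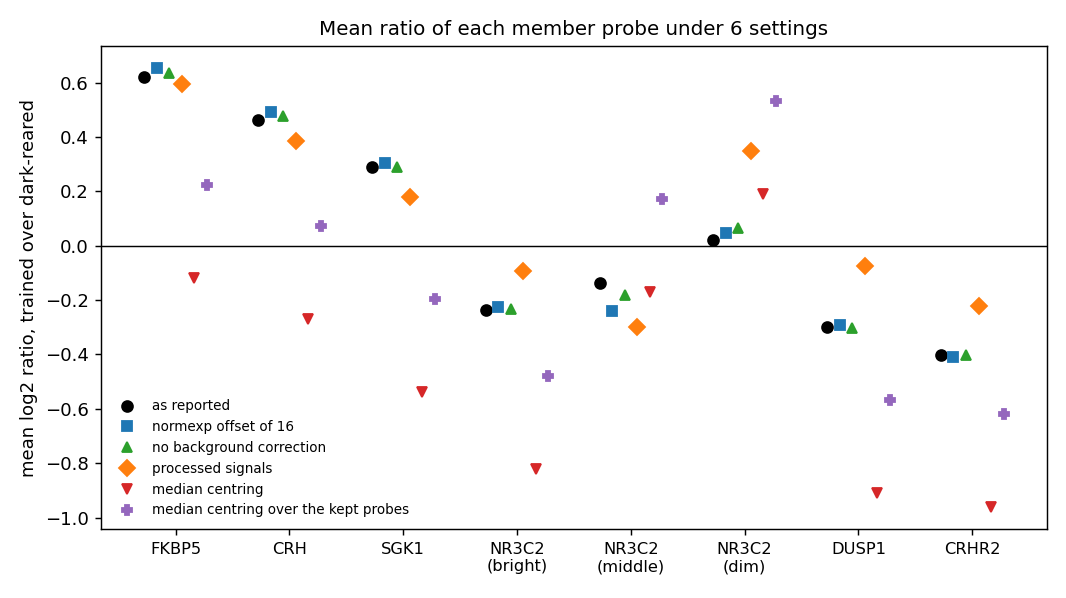
Mean log2 ratio of trained over dark-reared of each member probe under each processing setting. FKBP5 ranges down to -0.12 and SGK1 to -0.54 with median centring, and CRHR2 and DUSP1 stay below 0 in every setting shown.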

How the data were processed

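Whole-brain RNA of 4 pools was measured on 2 two-colour arrays with Cy3 for trained and Cy5 for dark-reared chicks, per the labels. The deposited scanner tables hold mean spot and median background intensity, processed intensity, a log10 ratio of red over green and its p-value, per the file headers, which name Feature Extraction 9.5.3.1; the submitters' processing notes name 8.5.1.1. The deposited series table holds log2 ratios, found equal to log2 of green over red processed signals for all 42034 probes within 0.001, so trained over dark-reared.

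Mean signals were corrected by normexp (offset 50) and loess with control spots at weight 0, and tested in limma 3.58.1 (R 4.3.3) over 27372 kept probes, with Benjamini-Hochberg adjustment over all of them and 25 flagged probes left out. With 1 residual degree of freedom, the prior added 5.06 in the fit as reported. Each p-value sets the mean ratio against a moderated variance. That variance came more from the prior, fitted over all kept probes, than from the probe's own spread between 2 arrays. Levels were scaled with Aquantile. Alternatives changed background correction, normalization, filter, moderation and threshold. Simulated on 27372 probes, this comparison recovered 15 of 67 probes changed 1.25-fold, 64 of 67 at 1.5-fold and 66 of 66 at 2-fold, with 10 false calls. Far fewer probes were changed in the simulation than the 4800 called on the real arrays, so the Benjamini-Hochberg adjustment was stricter there. Its recovery therefore does not carry over to the real calls, and its false calls belong to the simulated data. These false calls do not measure how many of the 4800 calls on the real arrays are false, nor how many come from dye, because the dyes were not swapped.

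Probes were named through RefSeq (assembly GRCg7b) by accession (5269), gene number (3781), symbol (889) or synonym (304), or by the symbol on the array (100); 31691 had no name. Positions are the galGal2 ones of the array files. The members and lists were chosen with earlier results of these data known. Genes were named if they were members, if they passed in the list while well above background in all channels, if listed by name whatever their values (NR3C1, CRHR1, POMC, CRHBP, HSD11B2, TSC22D3, PER2, FKBP4, PDK4), or if nearest to FKBP5 or CRH in their pair of ratios; other genes are markers.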

Additional observations from a re-analysis of the deposited data

Results flagged for a closer look

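Of the members and the genes named whatever their values, 3 probes near background had trained over dark-reared ratios of opposite sign in the sexes; 71.9% of kept probes had the same sign on both arrays, so such pairs were common. The NR3C2 probe A_87_P001483 had -0.015 in females and 0.061 in males, a difference of -0.076. NR3C1, the glucocorticoid receptor, had -0.078 in females and 0.11 in males, a difference of -0.19. PER2 had -0.0071 in females and 1.47e-05 in males, a difference of -0.0071. With 1 array per sex these differences were not tested.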

How the results depend on the processing

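Counts are given as higher and lower, for the 8 member probes, the list of 68 genes and all kept probes. They were 3 and 3, 14 and 11, and 1726 and 3074 as reported. A normexp offset of 16 gave 2 and 0, 7 and 0, and 306 and 628, where the smallest adjusted p over all kept probes was 0.0490, with FKBP5 (0.0490) and CRH (0.0499) still past limma's threshold; 3 member probes were higher and 4 lower at an unadjusted p under 0.05. Processed signals, and the series table equal to them, gave 0 throughout, with 3 member probes higher and 0 lower at an unadjusted p under 0.05 and adjusted p of 0.261 to 0.724 for the 6 called members. Of the 27372 kept probes, 8546 with the offset of 16 and 4878 with the processed signals had an unadjusted p under 0.05 in limma's test. Median centring of each array gave 0 and 5, 1 and 41, and 974 and 16499, with FKBP5 at -0.12, CRH at -0.27, SGK1 at -0.54, CRHR2 at -0.96, DUSP1 at -0.91 and NR3C2 probe A_87_P037597 at -0.82. With that median centring the smallest adjusted p over all kept probes was 2.4e-96 in limma's test, so its counts are not comparable with those as reported. Centring on the kept probes, chosen after seeing the data, gave 3 and 4, 22 and 29, and 10128 and 9798, but not for the same probes. CRH (0.072, adjusted p = 0.378 in limma) lost its call and SGK1 (-0.19) was called lower there, while the higher calls were FKBP5 (0.22) and the NR3C2 probes A_87_P001483 (0.53) and A_87_P027073 (0.17). Neither kind of centring removes the growth of the channel offset with brightness. A threshold of 0.10 gave 23 higher list genes and 2866 higher probes. No background correction, no filter, a filter on both channels and an intensity trend kept the members' counts at 3 and 3. Without either array there is no test, and the remaining array's ratio is given in the report. The ratio within each array already pairs the pools of a sex, so no further replicate block was fitted. Signals near background limit the readings of NR3C1, POMC, PER2 and 2 NR3C2 probes.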
